A study of Mus musculus with 4 samples.

Results

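The genotype by LPS interaction asks of each gene whether its response to LPS had the same size in macrophages with and without Hes1 and Hey1. It was computed on the log2 scale as the LPS effect in double knockout cells (DKO, LPS minus untreated) minus the LPS effect in wild-type cells (WT, LPS minus untreated), and the same number is also the DKO minus WT difference with LPS minus that difference at rest. All 4 arrays of the series enter it, 1 for each group. A gene was kept where a probe set naming that gene alone reached at least 200 units on at least 2 arrays, which left 8749 of 18193 genes. The gene Hemk1 stood just inside this limit, with 200.1 units on its second brightest array, and Zscan12 just outside it, with 199.98 units. Their interactions were -0.15 and 0.22.

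All cells were bone marrow-derived macrophages of C57BL/6 background, grown for 5 days in medium with 10% fetal bovine serum and 10% L929 cell supernatant, which supplies macrophage colony-stimulating factor. The groups were untreated WT, WT given 2 ng/ml LPS for 3 h, untreated DKO, and DKO given the same LPS. How the Hes1 and Hey1 alleles were made, which cells of the mice lacked them, and how many mice gave each sample are not stated in the labels. With 1 array per group there is no replicate spread, no error and no test. A difference of at least 2-fold, an interaction of 1 or more in size, is therefore a fixed limit of size and not a significance call. In bulk RNA, fewer cells of a type and less RNA per cell cannot be told apart.

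LPS, a component of the outer membrane of Gram-negative bacteria, is sensed by macrophages through TLR4 and CD14, which leads to NF-kB and interferon regulatory factor activity and to a rapid burst of cytokine, chemokine and feedback-inhibitor transcripts. In the same hours many transcripts of the resting state decline. Hes1 and Hey1 are basic helix-loop-helix repressors, induced by Notch signalling in many cells. Between them, proteins of the HES and HEY families bind N-box, E-box and class C DNA motifs, and Hes1 recruits Groucho (TLE) corepressors.

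The targeted genes were dim on every array. Hes1 read 45.4 units in untreated WT, 26.7 in WT with LPS, 2.14 in untreated DKO and 5.80 in DKO with LPS. Hey1 read 57.2, 17.3, 9.17 and 10.2 units in the same order. Both DKO arrays were below both WT arrays for either gene, but 52.9 units (the pooled median of every probe set) served as a floor for dim signal here, and only Hey1 in untreated WT was above it. Whether these probes lie inside the deleted sequence is unknown here, so their signal is a weak check of the labels. The cells carried macrophage transcripts: 10 of 10 macrophage markers passed the limit of 200 units, with a median interaction of -0.23. No T cell, B cell, NK cell, dendritic cell, mast cell or fibroblast marker passed it. The summed neutrophil markers were 354 to 583 units, of which S100a8 alone gave 284 to 465. Among megakaryocyte and erythroid markers only Pf4 passed, with an interaction of 0.31. Stem and progenitor markers summed to 5688 units in untreated WT, 3529 in WT with LPS, 2763 in untreated DKO and 1373 in DKO with LPS. Most of that sum came from Cd24a, which was lower in DKO in either state. Cd34 was lower as well, at 876 and 552 units in WT and 361 and 229 in DKO, without and with LPS. Sox4 was higher in untreated DKO (888 units) than in untreated WT (711). The part of these markers in the differences below was not tested. The 3 of them that passed had a median interaction of -0.05. The control probe sets for 18S rRNA read a median of 11654 and 11675 units on the WT arrays and 16976 and 19277 on the DKO arrays. Their part was not tested either.

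For most genes the LPS effect was of similar size in both genotypes. The interaction had a median of -0.054 over the 8749 genes, had quartiles of -0.22 and 0.14, and lay between -0.64 and 0.68 for the central 95%. It was at least 1 in 66 genes (0.754% of all genes) and at most -1 in 40 genes (0.457%), or 106 genes in either direction (1.21%). At 1.5-fold the counts were 325 higher (3.71%) and 302 lower (3.45%), and at 3-fold 10 higher (0.114%) and 5 lower (0.0571%). The extremes were Arhgap39 at -2.31 and Plpp1 at 2.75. Dim genes made up a large share: of the 66 genes 34 had a mean of 500 units or more over the arrays, and of the 40 genes 14 did. The floor acts on some values. Of the 66, 57 were above the floor on all 4 arrays, 4 gave a lower bound because the untreated DKO value was under it, and 5 had both untreated values under it. In those 5 genes only the LPS-treated arrays can be compared on the brightest probe set. The sign of the interaction there depends on resting levels that were not measured. Of the 5, Cxcl1 had a further probe set above the floor throughout, with an interaction of 0.93. Of the 40, 38 were measured throughout, Mks1 gave a bound and Ccl22 had both untreated values under the floor.

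**Figure D1:**
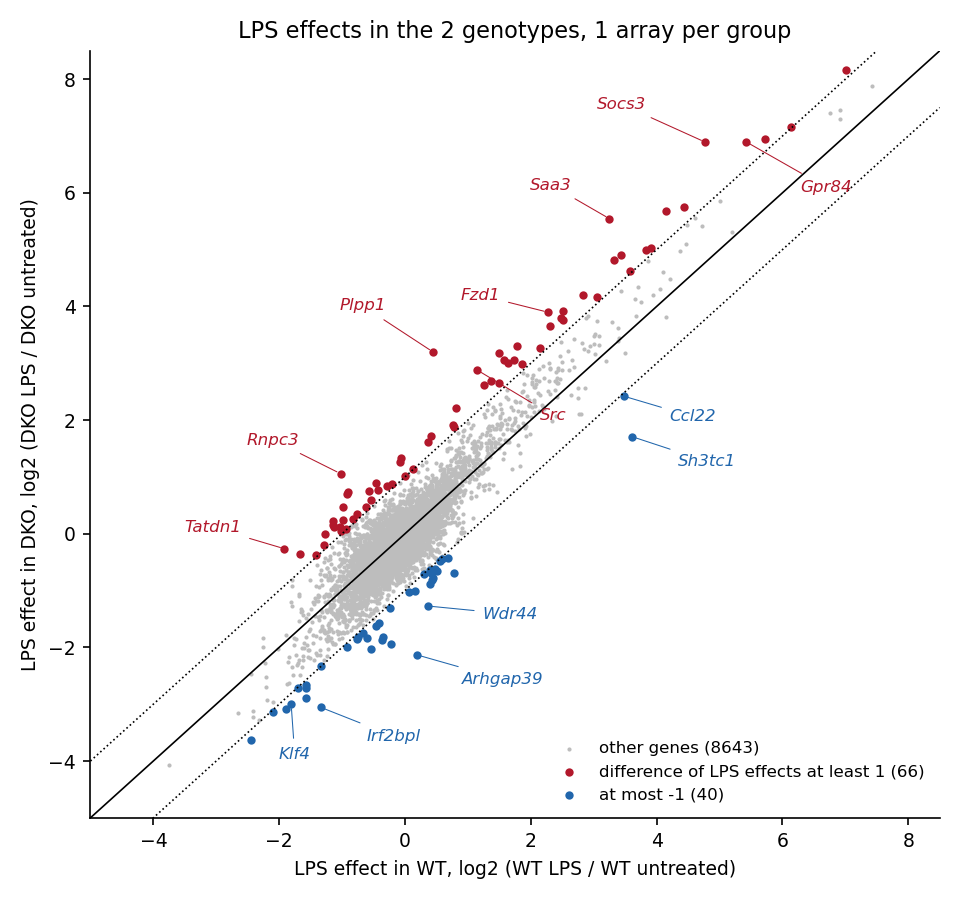
LPS effect in WT cells (x axis, log2) against LPS effect in DKO cells (y axis, log2) for 8749 genes, 1 point a gene. The solid line marks equal effects and the dotted lines a 2-fold difference; 66 genes (red) lie on or above the upper dotted line and 40 (blue) on or below the lower one.

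Saa3, Plpp1 and Klf4 had 3 different LPS patterns: induced past 2-fold in both genotypes, induced past 2-fold in DKO only, and lowered past 2-fold in both. Saa3 encodes a serum amyloid A protein of the acute phase that macrophages make themselves. It read 805 units in untreated WT, 7661 in WT with LPS, 268 in untreated DKO and 12486 in DKO with LPS. It was the lowest of the 4 in untreated DKO and the highest in DKO with LPS. LPS thus raised its signal 9.51-fold in WT and 46.7-fold in DKO, an interaction of 2.29. Plpp1 encodes a phosphatase that removes the phosphate from lysophosphatidic acid and related lipids. It read 158 and 215 units in WT and 78.8 and 723 in DKO, without and with LPS, so that the 2 WT arrays were close and the 2 DKO arrays lay on either side of them. Its LPS effects were 1.36-fold in WT and 9.18-fold in DKO. The second of its probe sets gave an interaction of 2.61, close to the 2.75 of the brightest. Klf4 encodes a zinc finger transcription factor of monocytes and macrophages that is known to restrain inflammatory activation. It read 3227 and 921 units in WT and 2447 and 305 in DKO. Its signal was 3.50-fold lower with LPS in WT and 8.02-fold lower in DKO, an interaction of -1.20, and its second probe set gave -1.48.

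**Figure D2:**
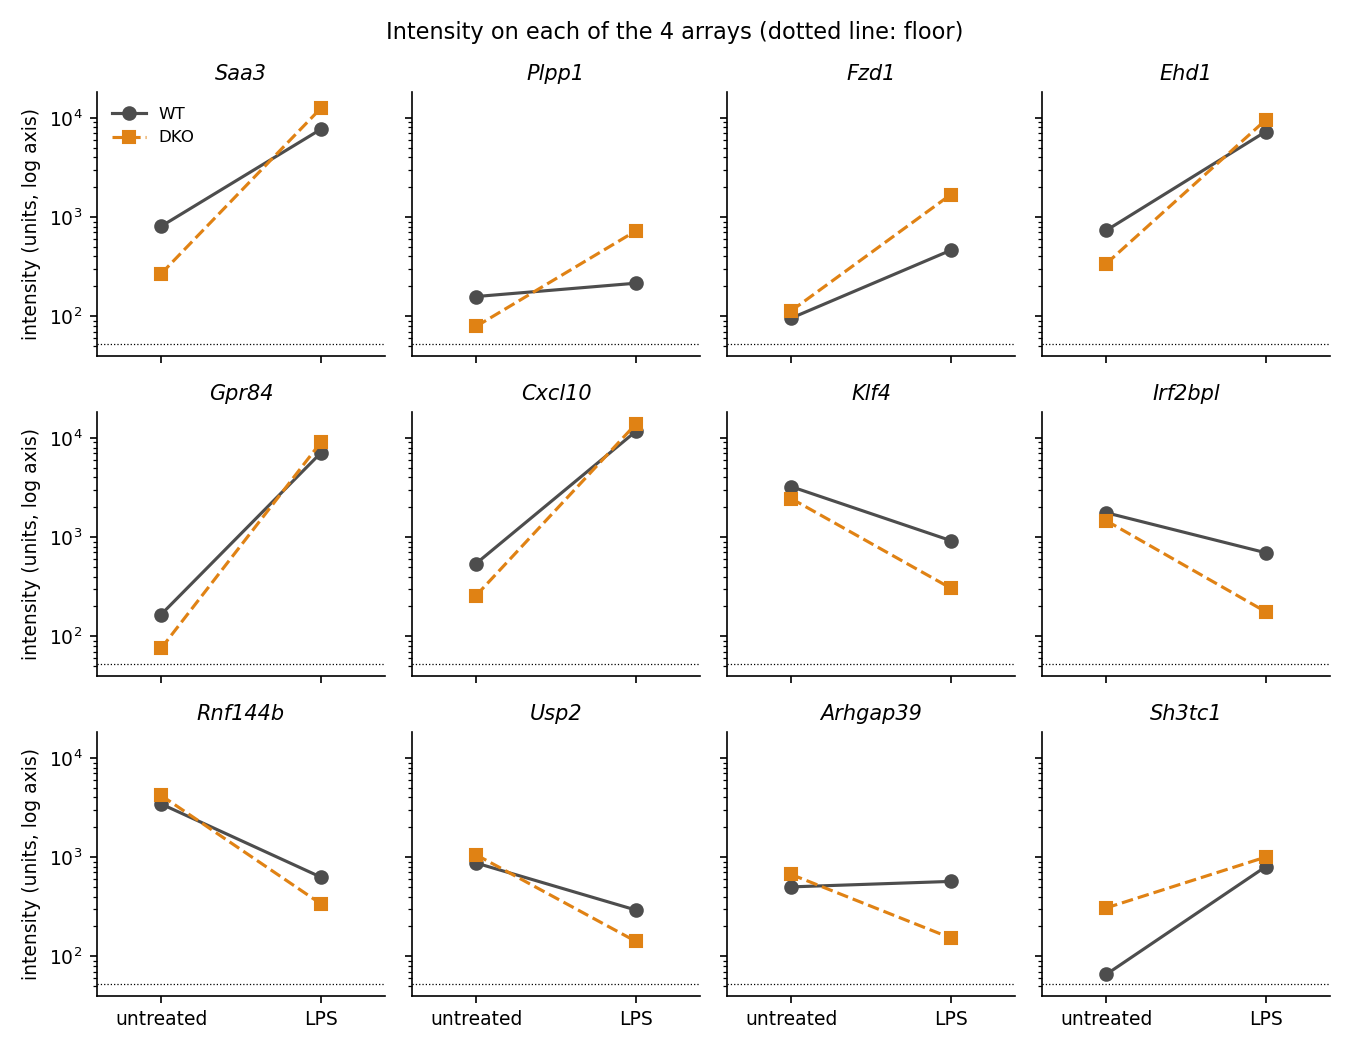
Intensity (y axis, units, log axis) of 12 genes on the untreated and the LPS-treated array of each genotype, WT as circles and DKO as squares, with the floor of 52.9 units dotted. For Saa3, Ehd1, Gpr84 and Cxcl10 the untreated arrays differ more than the LPS arrays; for Fzd1, Klf4, Irf2bpl and Arhgap39 the LPS arrays differ more.

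The 66 and the 40 genes differed in where the genotypes parted. Among the 66, the genotype difference was larger at rest in 40 genes and larger with LPS in 26. Their median DKO minus WT difference was -0.75 at rest and 0.51 with LPS. At least 2-fold lower in untreated DKO were 22 of them (against 0.64% of all genes) and at least 2-fold higher in DKO with LPS were 17 (against 0.457%), while in 28 neither difference alone reached 2-fold. Among the 40, the difference was larger at rest in 11 and larger with LPS in 29, with medians of 0.30 at rest and -0.89 with LPS. At least 2-fold lower in DKO with LPS were 13 of them (against 0.629%) and at least 2-fold higher in untreated DKO were 3 (against 0.297%). These differences are terms of the interaction, so their sizes follow in part from how the genes were counted. The array lying farthest from the median of the 4 was untreated DKO in 32 of the 66 genes, DKO with LPS in 16, WT with LPS in 10 and untreated WT in 8. Among the 40 it was DKO with LPS in 27, untreated DKO in 7, untreated WT in 4 and WT with LPS in 2. Each of these is a single array.

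**Figure D3:**
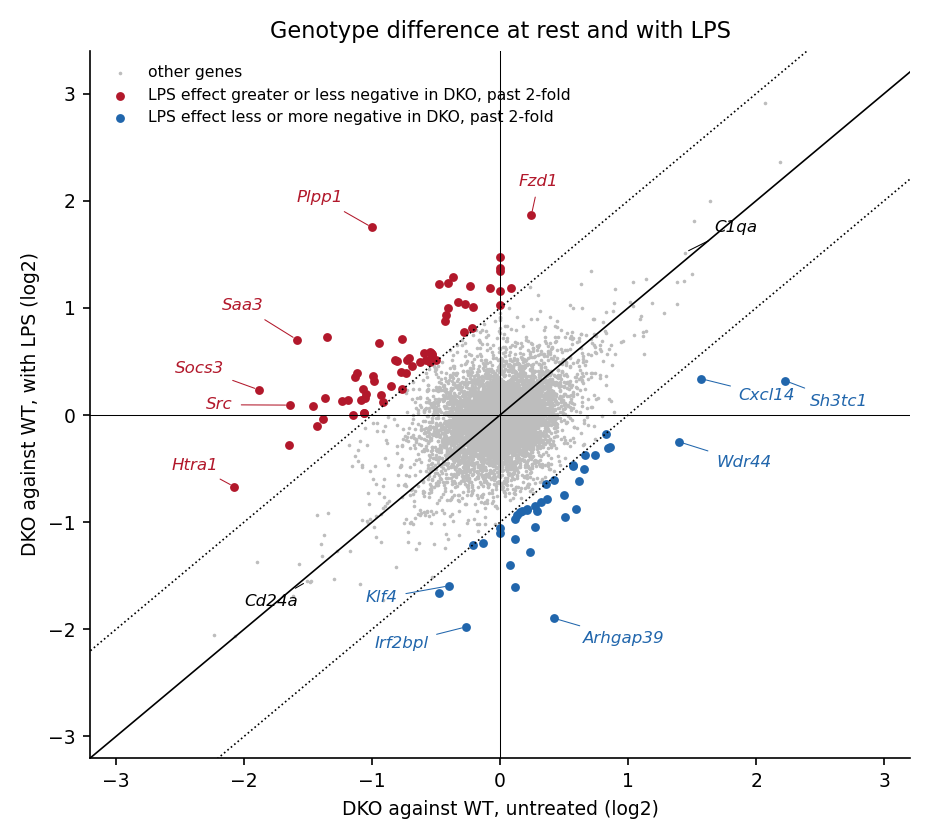
DKO minus WT difference at rest (x axis, log2) against the same difference with LPS (y axis, log2), 1 point a gene. Genes on the solid line have no interaction; the 66 (red) lie up and to the left with median coordinates of -0.75 and 0.51, and the 40 (blue) down and to the right with 0.30 and -0.89.

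Genes with a strong mean LPS response had interactions that leaned in the direction of that response, although for lowered genes this depended on how they were chosen. Of 390 genes whose mean LPS effect over both genotypes was at least 2-fold upward, 336 (86.2%) had an interaction above 0, against 41.9% of all genes, and their median was 0.36. The median LPS effect of these 390 was 1.48 in WT and 1.85 in DKO. Of 322 genes lowered at least 2-fold by the same measure, 259 (80.4%) had an interaction below 0, against 58.1% of all genes, with a median of -0.39. Their median LPS effect was -1.12 in WT and -1.42 in DKO. Both sets therefore had, at their medians, LPS effects of the same direction and of greater size on the DKO arrays. The remaining 8037 genes had a median of -0.058. The median interaction went from -0.73 in 31 genes with a mean LPS effect under -2, through -0.37 in 291 genes between -2 and -1, to 0.28 in 241 genes between 1 and 2, 0.44 in 119 between 2 and 4, and 0.94 in 30 above 4. Of those 30 genes 5 had both untreated values under the floor on the brightest probe set, so its interaction had an unmeasured sign. The other 25 had a median of 0.84 and were all above 0. Without the 19 such genes among the 390, the induced genes had a median of 0.35, with 85.7% above 0. The shift was seen mainly on the LPS-treated arrays: the median DKO minus WT difference of the induced genes was -0.090 at rest and 0.25 with LPS, and that of the lowered genes 0.080 at rest and -0.29 with LPS. With the arrays set to equal medians, the all-gene median interaction was -0.26 in place of -0.054. Relative to the median of all genes, the induced genes above 4 then stood at 0.90 and the lowered genes under -2 at -0.75. When the lowered genes were instead chosen by the WT arrays alone, the 258 genes had a median interaction of -0.097, and 57% were below 0, close to the median and the share of all genes. The 329 induced genes chosen by the WT arrays alone kept a median of 0.30, with 81.5% above 0.

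**Figure D4:**
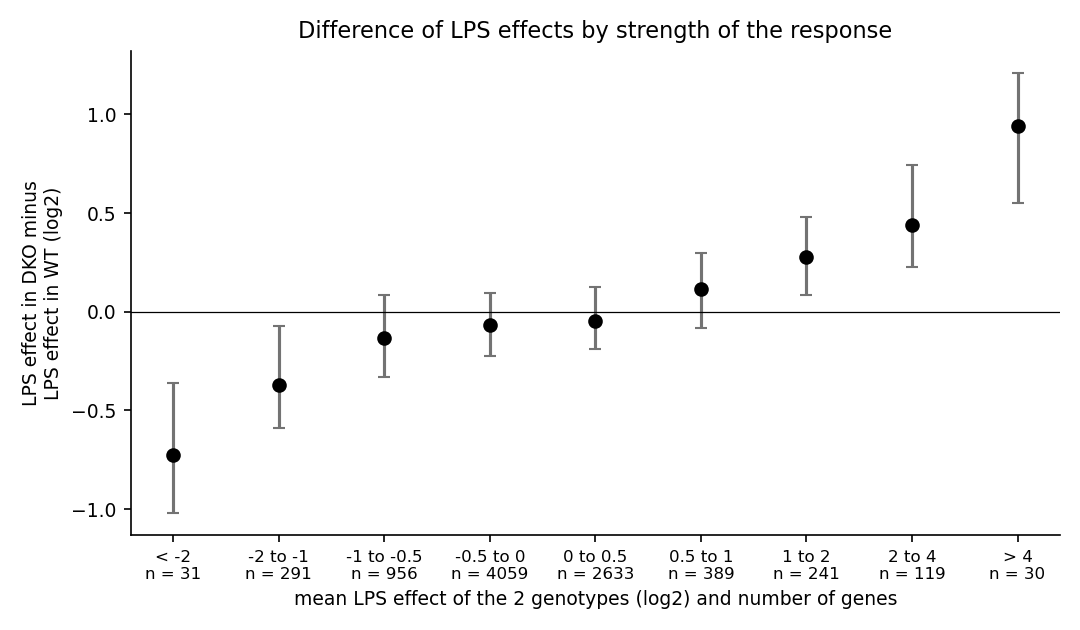
Median interaction (points, y axis, log2) with its quartiles over genes (bars) for genes grouped by the mean LPS effect of both genotypes (x axis, log2, with the number of genes). The medians go from -0.73 in the most lowered genes to 0.94 in the most induced.

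Genes were also grouped by the arrays on which they passed 2-fold. At least 2-fold higher with LPS were 329 genes in WT (3.76% of all genes) and 434 in DKO (4.96%), of which 310 in both. Of those 310, 31 had an interaction of at least 1 and 2, Ccl22 and Sh3tc1, one of at most -1. Only the DKO arrays gave 2-fold induction for 123 genes, 10 of them past 2-fold in the interaction, and only the WT arrays for 19, none past it. At least 2-fold lower with LPS were 258 genes in WT (2.95%) and 417 in DKO (4.77%). Of 233 genes lowered 2-fold on the DKO arrays only, 15 had an interaction of at most -1, and of 73 lowered on the WT arrays only, 10 had one of at least 1. A gene past 2-fold in 1 genotype and short of it in the other is not shown to differ by that alone, as these counts show. The gene Rnpc3, whose product belongs to the minor spliceosome, was past 2-fold in opposite directions: it read 581 and 286 units in WT and 228 and 474 in DKO. Its interaction was 2.08 on the brightest probe set and 0.41 on the other.

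Among secreted signals, several cytokine genes could be compared on the LPS arrays only. Of 14 inflammatory cytokine genes, 4 (Il12b, Il1b, Il6 and Il1a) had both untreated values under the floor and passed the limit of 200 units on the LPS arrays alone. Of the other 10, 7 had an interaction above 0, with a median of 0.24 against -0.054 over all genes, and none reached 2-fold. Il12b, the p40 subunit of interleukin 12 and interleukin 23, read 23.3 and 375 units in WT and 1.45 and 971 in DKO. With LPS it was 2.59-fold higher in DKO. Il1b, the pro-inflammatory interleukin 1 beta, read 51.6 and 3718 units in WT and 47.4 and 7559 in DKO, 2.03-fold higher in DKO with LPS. Il6 read 1291 units in WT and 2501 in DKO with LPS, 1.94-fold apart. The growth factor gene Csf1 was above the floor throughout, at 204 and 1494 units in WT and 145 and 2008 in DKO. Its interaction was 0.92, but 0.20 on its second probe set, which was also above the floor throughout. Tnf, encoding tumour necrosis factor, had 0.38.

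Chemokines went both ways. Of 16 measured, 8 were above 0 and 8 below, with 2 at or past 2-fold in each direction (0.754% higher and 0.457% lower over all genes) and a median of 0.05. Without the 3 that were under the floor at rest, 1 of 13 was past 2-fold each way. Cxcl10, an interferon-type chemokine that attracts activated T cells, read 541 and 11634 units in WT and 257 and 13796 in DKO. The LPS arrays differed 1.19-fold and the untreated arrays 2.10-fold, so that the interaction of 1.32 came mostly from the resting level. Cxcl1, a neutrophil attractant, read 25.4 and 6791 units in WT and 34.1 and 15192 in DKO. On the brightest probe set its untreated arrays were under the floor, and with LPS it was 2.24-fold higher in DKO. A further probe set of Cxcl1 was above the floor throughout and gave an interaction of 0.93. In the other direction, Ccl22, a ligand of CCR4, read 589 units in WT and 283 in DKO with LPS, and was under the floor without it. Cxcl14 read 135 and 184 units in WT and 400 and 232 in DKO, with an interaction of -1.23 that again came mostly from rest, where DKO was 2.97-fold higher.

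Promoter sequence was read for 4 genes. The LPS effect of Cxcl10 was larger in DKO, and Cxcl1 was higher in DKO with LPS. Klf4 and Irf2bpl were more strongly lowered in DKO. The 250 bases before the annotated start are printed 5′ to 3′ on the gene's strand, from RefSeq in build GRCm38.p6. Capitals mark matches, on either strand, to the NF-kB (kB) motif, the N-box CACNAG, the E-box CACGTG or the class C site CACGCG. Cxcl10 lies at chr5:92348890-92349139 (minus strand), Cxcl1 at chr5:90890995-90891244 (plus strand), Klf4 at chr4:55532476-55532725 (minus strand) and Irf2bpl at chr12:86884815-86885064 (minus strand).
Cxcl10: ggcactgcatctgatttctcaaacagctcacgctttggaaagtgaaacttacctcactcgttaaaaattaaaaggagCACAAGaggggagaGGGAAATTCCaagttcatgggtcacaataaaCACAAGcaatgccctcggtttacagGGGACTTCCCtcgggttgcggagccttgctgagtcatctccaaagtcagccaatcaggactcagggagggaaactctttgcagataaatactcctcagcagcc
Cxcl1: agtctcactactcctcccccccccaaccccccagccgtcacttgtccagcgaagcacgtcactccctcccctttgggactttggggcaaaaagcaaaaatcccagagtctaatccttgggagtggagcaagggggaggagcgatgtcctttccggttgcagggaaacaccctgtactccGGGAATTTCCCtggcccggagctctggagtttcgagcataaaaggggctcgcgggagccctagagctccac
Klf4: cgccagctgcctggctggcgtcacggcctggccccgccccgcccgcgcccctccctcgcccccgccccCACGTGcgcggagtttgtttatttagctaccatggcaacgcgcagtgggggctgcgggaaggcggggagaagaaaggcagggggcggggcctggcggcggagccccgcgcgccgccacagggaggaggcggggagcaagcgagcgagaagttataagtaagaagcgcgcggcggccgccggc
Irf2bpl: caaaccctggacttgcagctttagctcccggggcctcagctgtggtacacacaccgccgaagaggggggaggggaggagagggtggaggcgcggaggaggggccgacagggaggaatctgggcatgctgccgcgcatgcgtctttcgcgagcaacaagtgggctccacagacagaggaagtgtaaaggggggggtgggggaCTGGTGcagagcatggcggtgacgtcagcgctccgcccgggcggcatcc
The Cxcl10 window held 2 kB and 2 N-box matches, and the Cxcl1 window 2 kB matches that overlap on opposite strands. Klf4 held 1 E-box, which reads the same on both strands, and Irf2bpl 1 N-box on the opposite strand.

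Over windows of the 250 bases before the start, promoters were matched for 7239 of the 8749 genes. Of these, 5.43% held a kB motif, 39.3% an N-box, 10.7% an E-box and 17.6% a class C site. Of 51 matched genes among the 66, 7 (13.7%) held a kB motif, 20 (39.2%) an N-box, 2 (3.92%) an E-box and 5 (9.80%) a class C site. LPS-induced genes as a whole held a kB motif in 14% of 314 matched genes. Of 34 matched among the 40, none held a kB motif, 14 (41.2%) held an N-box, 9 (26.5%) an E-box and 6 (17.6%) a class C site. For 255 matched LPS-lowered genes the shares were 5.88%, 43.9%, 13.3% and 16.5% in the same order. These shares describe letters in a window and were not tested.

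Regulators that act back on the LPS response had interactions like those of induced genes in general. Of 26 genes of the NF-kB family and its feedback regulators, 24 were induced past 2-fold in WT and 21 in DKO. The interaction was above 0 in 21 of the 26, with a median of 0.31, beside 86.2% and 0.36 over all LPS-induced genes. Only Socs3 reached 1 (0.754% of all genes did). Socs3, an inhibitor of cytokine receptor signalling, read 196 and 5341 units in WT and 38.6 and 6288 in DKO. Since untreated DKO was under the floor, its LPS effect was at least 4.35-fold larger in DKO on this probe set. Another of its probe sets, above the floor throughout, gave 1.43. The remaining one was under the floor at rest, and its LPS arrays were 1.16-fold apart. Nfkbiz and Nfkbid, which encode atypical I kappa B proteins, had interactions of opposite sign on their brightest probe sets. Nfkbiz read 421 and 6157 units in WT and 333 and 9241 in DKO, an interaction of 0.93. Its other probe sets gave only 0.23 and 0.01. Nfkbid read 628 and 1652 in WT and 572 and 1042 in DKO, an interaction of -0.53. Nfkbie, encoding I kappa B epsilon, had 0.84 and the adaptor gene Traf1 0.64. Outside the list, Tank, encoding an adaptor of TRAF and TBK1 signalling, read 920 and 1228 units in WT and 464 and 1528 in DKO, an interaction of 1.30. Malt1, the paracaspase gene, had 1.13 on its brightest probe set.

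Toll-like receptor and Notch pathway genes gave little. Of 24 Toll-like receptor and signalling genes none reached 2-fold in the interaction, and the median was 0.03. The largest was Tlr1, which pairs with TLR2 to sense lipopeptides, at 465 and 986 units in WT and 570 and 2140 in DKO, an interaction of 0.82. Tlr4 itself had 0.05, Cd14 -0.23 and Myd88 -0.05. Of 21 Notch pathway genes none reached 2-fold on its brightest probe set and the median was -0.03. Its largest member was the ligand gene Jag1, at 452 and 4890 units in WT and 323 and 6245 in DKO, an interaction of 0.84. Rbpj, the DNA-binding effector of Notch signalling, had 0.55, and 0.76 and 1.41 on its other probe sets. The corepressor genes Tle3 and Tle1 had 0.39 and -0.39, and the other probe set of Tle1 gave 0.02.

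Surface receptors held some of the largest values. Gpr84, a receptor for medium-chain fatty acids, read 165 and 7052 units in WT and 75.3 and 9011 in DKO. LPS raised it 42.6-fold in WT and 120-fold in DKO, an interaction of 1.49 in which the resting arrays differed 2.20-fold and the LPS arrays 1.28-fold. Fzd1, a Wnt receptor, was the opposite case: 95.4 and 462 units in WT and 113 and 1685 in DKO. At rest its arrays were 1.18-fold apart and with LPS 3.65-fold, an interaction of 1.62. Gpr85, an orphan receptor, read 264 and 743 units in WT and 190 and 1729 in DKO. It had 1.69 on its brightest probe set and 0.48 and 0.32 on the others. Fpr2, a formyl peptide receptor, was under the floor at rest and read 572 units in WT and 1591 in DKO with LPS. Among receptor genes with values of at most -1 were Gpr183, Lpar6 and Cxcr4. Gpr183, the receptor for oxysterols that guide immune cells, read 697 and 187 units in WT and 501 and 59.4 in DKO, an interaction of -1.18. Lpar6, a receptor for lysophosphatidic acid, read 2427 and 812 units in WT and 3035 and 462 in DKO, an interaction of -1.14. Cxcr4, the receptor for CXCL12, read 13271 and 8336 units in WT and 14926 and 4465 in DKO. Its interaction of -1.07 became -0.91 after quantile normalization. For these 3 the LPS-treated DKO array was the lowest of the 4. Over the whole list of 21 G protein-coupled receptor and RGS genes, 2 reached 1 and 2 reached -1 (0.754% and 0.457% of all genes), with a median of 0.14.

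Signalling enzymes and trafficking proteins followed. Src, the tyrosine kinase, read 307 and 679 units in WT and 98.2 and 723 in DKO, with an interaction of 1.74. Its other probe set was under the floor in untreated DKO and gave at least 0.47. Ehd1, an ATPase of endocytic recycling, read 732 and 7279 units in WT and 338 and 9554 in DKO. Its interaction of 1.51 was matched by its second probe set at 1.71. Arhgap39 was lowered on the DKO arrays only, from 669 to 153 units, while WT read 501 and 569. Sh3tc1 had the largest resting difference of the genes below -1: it read 65.6 and 804 units in WT and 307 and 1003 in DKO. It was induced in both genotypes, 12.3-fold in WT and 3.26-fold in DKO, an interaction of -1.91.

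Secreted effectors and proteases included several of the 66. Of 12 acute phase and antimicrobial genes 3 reached 1 (0.754% of all genes did), namely Saa3, Acod1 and Fpr2, the last of them under the floor at rest. The median was 0.06, or -0.085 without Fpr2. Acod1, which makes itaconate, read 405 and 21438 units in WT and 191 and 23589 in DKO. With LPS the genotypes were 1.10-fold apart and at rest 2.12-fold, for an interaction of 1.22. Of 21 protease and matrix genes 3 reached 1 (0.754% of all genes did), among them Itgb8, which was under the floor at rest, with a median of 0.02. Mmp14, a membrane-bound matrix metalloprotease, read 164 and 2902 units in WT and 59.8 and 3068 in DKO. Its interaction was 1.54. Both of its other probe sets were under the floor at rest, and with LPS they read 1.70-fold higher and 1.30-fold lower in DKO. Htra1, a serine protease, read 224 and 390 units in WT and 50.2 and 246 in DKO, so its LPS effect was at least 2.66-fold larger in DKO. Itgb8, an integrin chain, read 262 units in WT and 664 in DKO with LPS. Among stress response genes, Chac1, a glutathione-degrading enzyme, read 204 and 486 units in WT and 65 and 401 in DKO, an interaction of 1.37. Slc7a11, the cystine transporter, read 133 and 1101 units in WT and 69.8 and 1255 in DKO, an interaction of 1.12.

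On the brightest probe sets, Kruppel-like and immediate early factors held no gene with an interaction of 1 or more. Of 10 Kruppel-like factor genes 7 were below 0, where 58.1% of all genes were, with a median of -0.32, and Klf4 reached -1 (0.457% of all genes did). Klf9 read 2159 and 981 units in WT and 2354 and 617 in DKO, an interaction of -0.79. Its other probe sets gave -0.11 and -0.92. Klf2 had -0.53. Klf7, induced in both genotypes, went the other way at 0.62, and its other probe sets gave 0.90, 0.79 and 1.12. Of 14 immediate early factors 9 were below 0, a share near that of all genes, with a median of -0.14. None was past 2-fold on its brightest probe set. Fos, part of AP-1, read 4216 and 7884 units in WT and 3374 and 3617 in DKO, and Jun, its partner, 2614 and 1553 in WT and 3034 and 991 in DKO. Their interactions were -0.80 and -0.86, and the other probe set of Jun gave -1.07. Ets2 had the highest value of the 14, at 0.70, and 1.47 on its other probe set. Cebpa, a myeloid lineage factor, read 3772 and 1486 units in WT and 3914 and 944 in DKO, an interaction of -0.71. Irf2bpl, a member of the IRF2-binding protein family, read 1761 and 694 units in WT and 1464 and 176 in DKO. LPS lowered it 2.54-fold in WT and 8.30-fold in DKO, an interaction of -1.71 on its brightest probe set and -0.66 on the other.

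Other genes of the 40 encode enzymes that act on proteins or on RNA. Usp2, a deubiquitinase, read 872 and 293 units in WT and 1056 and 142 in DKO, an interaction of -1.32, and -0.84 on its other probe set. Rnf144b, an E3 ubiquitin ligase, read 3439 and 629 units in WT and 4195 and 339 in DKO. It was lowered 5.47-fold in WT and 12.4-fold in DKO, an interaction of -1.18. The pseudouridine synthase genes Pus7 and Pus7l had -1.27 and -1.46. Pus7 read 264 and 348 units in WT and 287 and 156 in DKO, and Pus7l 191 and 327 in WT and 272 and 169 in DKO. In both, WT was higher and DKO lower with LPS than without, by less than 2-fold in either genotype. Qtrt1, which places queuine in tRNA, had the same form at 163 and 220 units in WT and 230 and 131 in DKO, an interaction of -1.25. Trmt61a, a tRNA methyltransferase, went against them at 230 and 219 units in WT and 88.3 and 213 in DKO, an interaction of 1.34. Pus7, Pus7l, Qtrt1 and Trmt61a each rest on a single probe set.

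The other lists held few genes past 2-fold. Of 34 interferon-stimulated genes Ifi204 alone reached 1 (0.754% of all genes did), with a list median of 0.04. It read 1347 and 617 units in WT and 823 and 894 in DKO, and Mx1, an antiviral GTPase, had 0.73. Of 33 macrophage identity genes, 23 sterol and fatty acid genes, 14 LXR targets, 18 glycolysis and hypoxia genes, 28 cell cycle genes and 20 antigen presentation genes, none reached 2-fold in either direction. Their medians were -0.13, -0.16, -0.11, -0.08, -0.11 and -0.07. Of 22 FoxO and growth restraint genes Trib1, a pseudokinase, had 1.33, and 1 member, Rnf144b, reached -1. The list median was 0.02. Among 12 reference genes 10 were below 0 with a median of -0.29, for instance Rplp0 at -0.33 and Polr2a at -0.37. Their median became -0.11 after quantile normalization and -0.15 after cyclic loess. The list medians from 0.02 to 0.14 turned negative with equal array medians, which moved the median of all genes by a like amount.

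**Figure D5:**
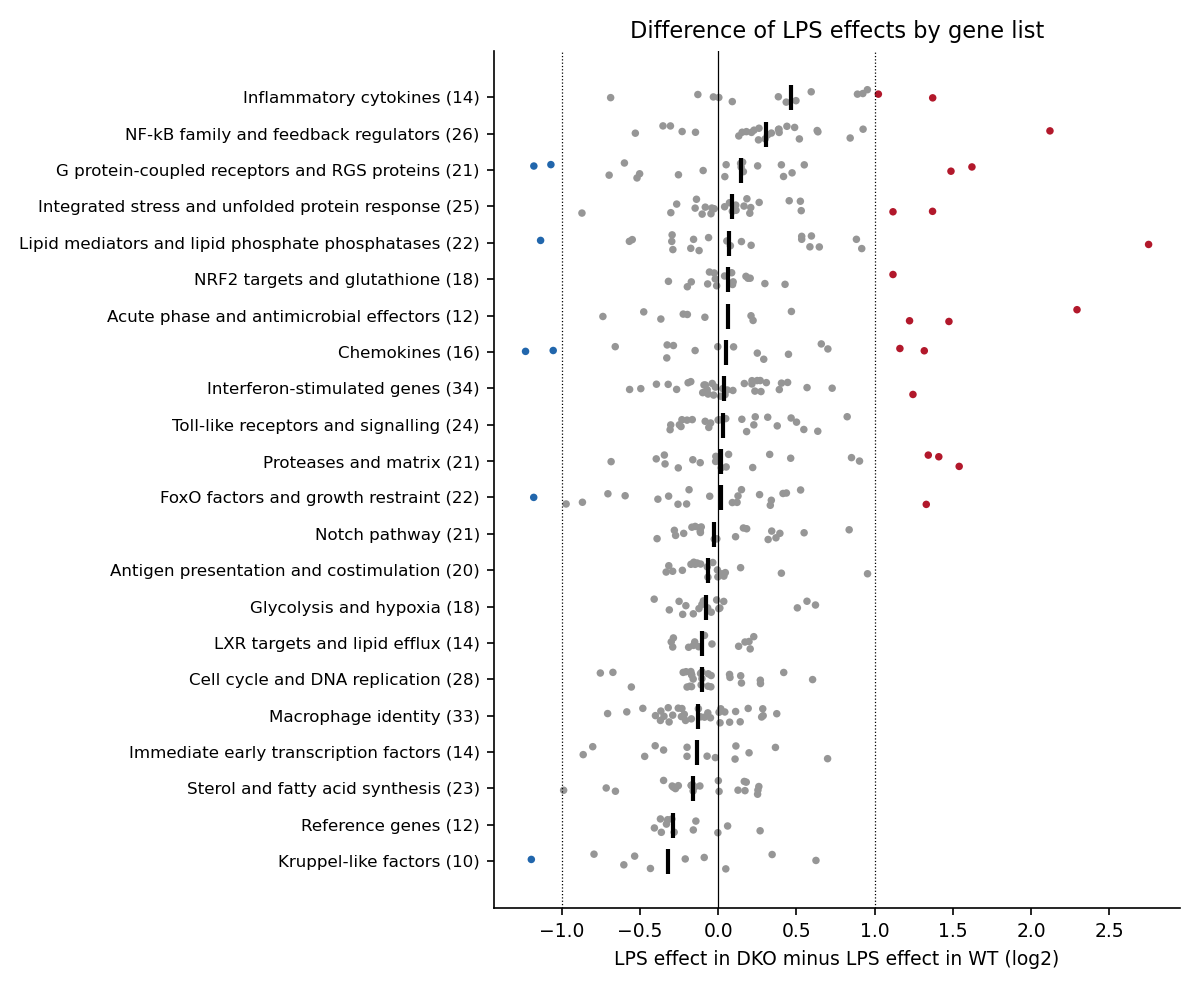
Interaction (x axis, log2) of each measured gene of 22 lists, 1 point a gene, with the list median as a black bar and the 2-fold limits dotted; the number of genes is in brackets. Cytokines have the highest median (0.47, or 0.24 without 4 genes under the floor at rest) and Kruppel-like factors the lowest (-0.32).

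Large genotype differences did not go with an interaction in every gene. The 5 genes of at least 500 units on all arrays with the largest steady differences and an interaction under 0.25 in size were Cd24a, C1qa, Tbc1d23, Pltp and Fcrls. C1qa, a chain of complement C1q, read 3237 and 3197 units in WT and 8804 and 9145 in DKO, an interaction of 0.07. Cd24a, a glycoprotein of immature cells, read 3995 and 2800 units in WT and 1405 and 954 in DKO, an interaction of -0.05. In both the genotypes differed by over 2-fold in either state and LPS moved them alike.

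A second probe set of the same gene gives a partial check within the arrays, though not between cultures. Over 3601 genes with at least 2 passing probe sets, the interactions of the 2 brightest differed by a median of 0.24. Of the 66 genes, 23 had a second probe set: it went the same way in 21, was past 1.5-fold in 10 and past 2-fold in 5. Those 5 were Plpp1, Ehd1, Cxcl1, Hspa1b and Tsc22d1, of which Cxcl1 was under the floor at rest on both. One further probe set of Tsc22d1 gave -0.19. Counting only the 17 second probe sets that were never under the floor, 15 went the same way, 7 past 1.5-fold and 4 past 2-fold. Their median was 0.41, against 1.21 on the brightest probe set, which chose the genes. Pik3cd at -0.36 and Tatdn1 at -0.31 went the other way. Of the 40 genes, 8 had a second probe set, of which 7 were above the floor on all arrays. All 7 went the same way, 4 past 1.5-fold and 2, Klf4 and Dusp7, past 2-fold. Their median was -0.66, against -1.20 on the brightest. The other 43 and 32 genes rest on 1 probe set. Dim signal itself leaned to 1 side. The 19618 probe sets that never reached 52.9 units had a median interaction of 0.22 when read without the floor. Their median DKO minus WT difference was -0.25 at rest and -0.037 with LPS. At rest the 66 genes leaned the same way, with 59 lower in DKO and 2 higher. The part of dim signal in the 66 was not tested. Where a resting or LPS array was dim, the size depended on the floor. With the floor at the 65th percentile of all values the interaction of Socs3 became 0.45, that of Gpr84 0.35, of Mmp14 0.08, of Chac1 -0.00215, of Htra1 -0.26, of Sh3tc1 -0.55 and of Gpr183 0.32.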

How the data were processed

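RNA of the 4 samples was hybridised to Affymetrix mouse arrays of 45101 probe sets. The authors deposited linear intensities, 1 value a probe set. Each array's mean, trimmed of 2% at either end, was 500.0 units; the tool behind this scaling was not given in the sources used here. It fixes bright signal and leaves dim probe sets free: array medians were 59.1 units in untreated WT and 50.8 to 51.0 on the other 3. The number of arrays limits the precision.

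Left out were 64 control probe sets, 932 with several genes and 9160 not listed with a gene, which left 34945. The array annotation names no build; symbols were updated through a RefSeq table of GRCm38.p6 for 34741 probe sets. Values under the pooled median of 52.9 units were set to it before log2 was taken; 14235 probe sets reached 200 units on 2 arrays, and each gene was read from its brightest one. The members and the 32 gene lists (611 of 670 entries on the array, 463 passing) were chosen with earlier results of these data known.

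Named genes are Saa3, Plpp1, Klf4, Hes1 and Hey1; the 15 largest interactions in each direction above the floor with no probe set of opposite sign; the 10 largest bounds each way; the 6 largest per LPS pattern; each list's members past 2-fold and its 4 largest; and 5 steady genotype differences. Hemk1, Zscan12, Malt1, Hspa1b, Tsc22d1, Pik3cd, Dusp7, Dnmt3l, Rhov, Il1a, Tnf, Klf2, Tlr4, Cd14 and Myd88 were named outside that rule, after their values were seen.

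The scripts, tested on simulated data, used Python 3.11.15, numpy 2.4.6, pandas 2.3.3, and R 4.3.3 with limma 3.58.1 for loess. Alternatives were 3 other scalings, 2 floors, an offset of 16 units, 4 filters, 3 choices of probe set and 2 thresholds. No test was run, since there is 1 array per group.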

Additional observations from a re-analysis of the deposited data

Results flagged for a closer look

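Rnpc3, which encodes a protein of the minor spliceosome, was 2-fold lower with LPS in WT and 2-fold higher in DKO, and no other gene passed 2-fold in opposite directions. Its interaction was 2.08. The opposite directions were seen on 1 array per group, the difference was not tested, and its second probe set gave 0.41.

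Outside the genes described, 1223 probe sets with no listed gene or with several genes passed the limit of 200 units. Of these, 38 had an interaction past 2-fold, 28 higher and 10 lower, which is 3.11% against 1.21% of named genes. They name no gene here, and the share was not tested.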

How the results depend on the processing

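No paired analysis was possible because the labels give 1 sample a group. Against 66 genes higher and 40 lower, equal array medians gave 43 and 101, with a share of higher genes of 29.9% in place of 62.3% and medians of 0.13 for LPS-induced and -0.61 for LPS-lowered genes. A floor at the 65th percentile left 46 and 23. Filters of 100 units, 500 units, 200 units on all 4 arrays and none gave 131 and 70, 37 and 17, 24 and 15, and 218 and 100. The second brightest probe set, over 3601 genes, gave 62 and 16, and a median of -0.22 for LPS-lowered genes. At 1.5-fold there were 325 and 302 genes and at 3-fold 10 and 5. Genes chosen on the brightest probe set but read on the second had medians of 0.47 when induced and -0.28 when lowered, and lowered genes chosen by WT alone had -0.097. The LPS-induced median was above 0 and the LPS-lowered median below 0 in every setting run. Setting equal array medians multiplies each array by a constant, so interactions of genes above the floor move by the same amount. Saa3 went from 2.294 to 2.085 and Klf4 from -1.195 to -1.404. The cause of the other moves was not tested, apart from the filters and thresholds, which change the number of genes counted. Leaving out genes with both resting values under the floor, chosen after seeing the data, gave medians of 0.35 for induced and -0.39 for lowered genes. Quantile normalization, cyclic loess, a lower floor and an offset kept both counts within 1.5 times.

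Of 1145 values of the 106 genes past 2-fold under the alternatives, 1136 kept their direction. The filters and, for genes with 1 probe set, the choice of probe set mostly return the same value. The genes were also chosen for their size, so this count was in part fixed in advance. With the floor at the 65th percentile Chac1 came to -0.00215, Htra1 to -0.26, Dnmt3l to -0.11, Rhov to 0.00266 and Gpr183 to 0.32. Tatdn1 came to -0.31 on its second probe set, which is also its brightest with 200 units on all 4 arrays, and Pik3cd to -0.36 on its second. With shared probe sets left out Tsc22d1 came to -0.19. Of 63 higher genes with a value under all 3 other scalings, 42 stayed past 2-fold in each, and of 35 lower genes 32 did. Signal near the floor limits the dim genes: calls made up 1.5% higher and 1.22% lower of genes under 500 units, against 0.485% and 0.149% of genes of 2000 units or more.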

Other observations

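Genes with no LPS effect past 2-fold in either genotype made up 7806 of the 8749, and 14 of them had an interaction of at least 1 and 13 of at most -1. Il17re, a receptor chain for interleukin 17 family cytokines, read 267 and 142 units in WT and 202 and 335 in DKO, an interaction of 1.64. Rexo5, an RNA exonuclease gene, read 305 and 161 units in WT and 158 and 257 in DKO, an interaction of 1.62. Pde12, whose enzyme degrades the second messenger of the oligoadenylate synthetases, read 1117 and 1067 units in WT and 888 and 2224 in DKO. It was induced past 2-fold on the DKO arrays only, with an interaction of 1.39, and 0.87 on its second probe set. Eif2a, a translation initiation factor gene, read 1787 and 563 units in WT and 1324 and 1032 in DKO, an interaction of 1.31, but 0.26 on its second probe set.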
